A study of Mus musculus with 80 samples.

Results

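A set of 8 genes of cholesterol synthesis and its control, of the 56941 genes in the count table, was followed through the left ventricle of mice on different diets and after irradiation. They were taken by name. Hmgcs1, Sqle, Idi1, Fdps, Fdft1 and Lss encode enzymes of the pathway, and Insig1 and Srebf2 encode parts of its sterol control. All 8 passed the filter on low counts, as did 15879 genes in all. Their levels are given as CPM, the counts scaled to a fixed total using each library's TMM-adjusted total count.

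The 80 libraries came from left ventricular tissue of C57Bl/6J mice, with 10 libraries in each of 8 groups. In each sex the groups were the Normal diet with a Sham field at 0 cGy, called sham below, the Western diet with a Sham field at 0 cGy, the Normal diet with a field labelled Mix at 50 cGy, and, again on the Normal diet, Gamma at 100 cGy. The centigray (cGy) is a unit of absorbed dose. All groups shared the strain and tissue, and no group combined the Western diet with radiation. The labels used here give no age, no interval after exposure, no make-up of the mixed field and no animal behind a library, so the p-values reflect how far libraries of a group lay apart, which may be technical. Each library also has a title number, and each group holds 5 libraries numbered 1 to 20 and 5 numbered 21 to 40. What separates these runs of numbers is not given in the labels, and they are called the low-number and high-number sets here.

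Cholesterol is built from acetyl-CoA by way of mevalonate, isoprenoid units, squalene and lanosterol, and most cells keep this route under feedback. When sterols in the endoplasmic reticulum membrane are low, the precursor of SREBP-2, the product of Srebf2, is escorted by SCAP to the Golgi and cut to a transcription factor that raises the genes of the pathway. When sterols are high, INSIG-1, the product of Insig1, holds the SCAP complex back. The factor binds sterol regulatory elements near gene starts, usually with the CCAAT-binding factor NF-Y and with Sp1 close by, and Srebf2 and Insig1 are themselves among its targets.

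RefSeq promoter windows, from 250 bases before to 50 after the start, were held for 5 of the 8 genes (Hmgcs1, Idi1, Lss, Insig1 and Srebf2; table build GRCm38.p6), and each window matched GRCm39 at 1 place. The windows of 3 genes are shown because they carry the letters of the known control elements: a sterol regulatory element in Hmgcs1 and Srebf2, and in Insig1 the E-box that SREBP and clock factors can also bind. Each is printed 5′ to 3′ on the gene's plus strand, up to the earlier of the RefSeq and GENCODE starts. Capitals mark the sterol element, the CCAAT box (which lies on the minus strand and so reads ATTGG as printed) and the E-box.
Hmgcs1, chr13:120151637-120151886: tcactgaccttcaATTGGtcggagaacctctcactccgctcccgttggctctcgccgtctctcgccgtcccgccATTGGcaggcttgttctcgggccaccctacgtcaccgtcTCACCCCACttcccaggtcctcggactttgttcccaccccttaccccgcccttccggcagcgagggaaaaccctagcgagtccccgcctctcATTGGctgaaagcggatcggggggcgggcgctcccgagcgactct
Srebf2, chr15:82031220-82031381: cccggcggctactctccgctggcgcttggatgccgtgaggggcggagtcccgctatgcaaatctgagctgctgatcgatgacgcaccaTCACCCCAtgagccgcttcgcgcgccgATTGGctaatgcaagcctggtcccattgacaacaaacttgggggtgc
Insig1, chr5:28276160-28276314: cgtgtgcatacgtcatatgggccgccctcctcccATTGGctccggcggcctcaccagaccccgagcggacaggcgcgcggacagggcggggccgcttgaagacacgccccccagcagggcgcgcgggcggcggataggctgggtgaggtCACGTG

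Motifs were searched on both strands of the full windows. The sterol element in the strict form TCACNCCAC was found in Hmgcs1, at -137 to -129 from the RefSeq start, and in 1.24% of all 32851 windows of the same length. The shorter form TCACNCCA, which overlaps the strict one in Hmgcs1, was also found in Srebf2 at -162 to -155 and in 4.36% of all windows. The CCAAT box was present in 5 of 5 members' windows against 37.4% of all windows, and the GC box GGGCGG, a site for Sp1, in 5 of 5 against 35.7%. Hmgcs1 held 4 CCAAT boxes, Idi1 held 2, and Lss, Insig1 and Srebf2 held 1 each. The E-box CACGTG was found in Insig1 at -101 to -96 and in 7.15% of all windows. These matches describe letters in a window and do not show binding.

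**Figure D1:**
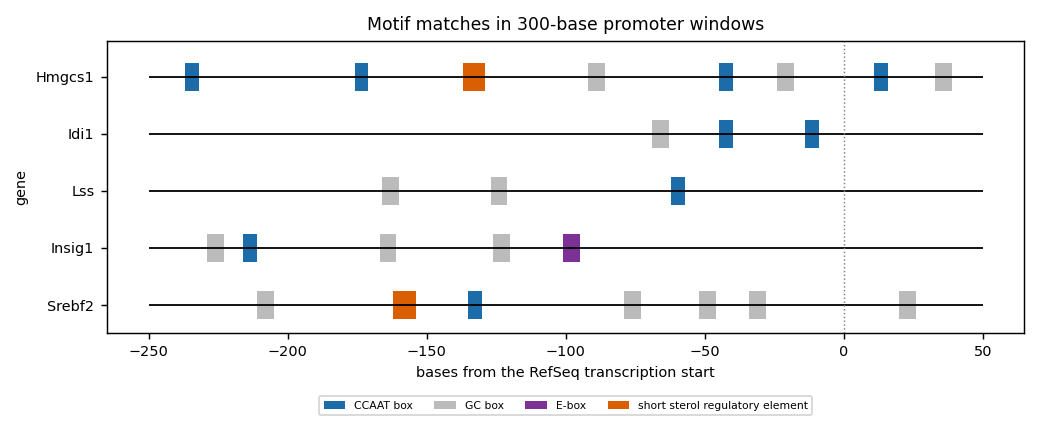
Motif matches in the RefSeq promoter windows of 5 members, plotted by distance in bases from the RefSeq start (dotted line), one line per gene; colours give the motif. Every window holds a CCAAT box and a GC box, while the short sterol element lies in Hmgcs1 and Srebf2 and the E-box in Insig1.

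The genes were all expressed in the ventricle, over a wide range. Compared per kilobase of summed exon length, Fdft1 (squalene synthase, the first enzyme committed to sterols; chr14:63382189-63417027, GRCm39, minus strand, ENSMUSG00000021273) was highest, at 8.99 ± 1.45 CPM per kb (SD, n = 80). The next 3 genes lay close together: Hmgcs1 (cytosolic HMG-CoA synthase; chr13:120151915-120170470, plus strand, ENSMUSG00000093930) at 4.32 ± 0.555 CPM per kb, Srebf2 (chr15:82031382-82093201, plus strand, ENSMUSG00000022463) at 4.30 ± 0.578 and Insig1 (chr5:28276315-28283668, plus strand, ENSMUSG00000045294) at 4.20 ± 0.621 (each SD, n = 80). Fdps (farnesyl diphosphate synthase; chr3:89000888-89019213, minus strand, ENSMUSG00000059743) stood at 2.99 ± 0.388 CPM per kb (SD, n = 80). The other 3 enzymes were far lower.

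Idi1 (isopentenyl diphosphate isomerase; chr13:8935537-8942487, plus strand, ENSMUSG00000058258) had 0.542 ± 0.168 CPM per kb (SD, n = 80). Lss (lanosterol synthase, which closes the ring system; chr10:76367298-76392976, plus strand, ENSMUSG00000033105) had 0.312 ± 0.0665 and Sqle (squalene epoxidase, a rate-limiting oxygen-requiring step; chr15:59186869-59203043, plus strand, ENSMUSG00000022351) had 0.266 ± 0.0757 CPM per kb (SD, n = 80). In this order Fdft1 exceeded Hmgcs1 in 80 of 80 libraries, but Hmgcs1 exceeded Srebf2 in only 43 and Srebf2 exceeded Insig1 in only 45 of 80, so these neighbours did not differ beyond their spread. Insig1 exceeded Fdps in 73 of 80 libraries and Fdps exceeded Idi1 in 80 of 80. Idi1 exceeded Lss in 72 of 80 and Lss exceeded Sqle in 55 of 80. The enzymes at either side of squalene thus stood at opposite ends of this order, with Fdft1 first and Sqle last. The place of Sqle depends on the division by exon length. As mean CPM without it, Idi1 (1.92) was lowest, below Sqle (2.36) and Lss (3.54). The place of Srebf2 depends on the division too. As mean CPM, Srebf2 (40.2) lay near Fdft1 (42.9) and above Hmgcs1 (22.7) and Insig1 (20.5).

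Counts behind these levels differed as much. The median count per library was 717 for Fdft1 and 655.5 for Srebf2, but 56 for Lss, 36 for Sqle and 30 for Idi1. Counting error alone gave a coefficient of variation of 3.76% for Fdft1 and 17.7% for Idi1, so the 3 low genes could be followed less precisely. Some levels also carry reads that may belong to a neighbour, because the strand setting of the counting is not given. Ctsb, which overlaps Fdft1 on the other strand, held 681592 counts over all libraries against 56492 for Fdft1, and Washc5, which overlaps Sqle, held 41569 against 3117. Nim1k, which overlaps Hmgcs1, held 6958 against 30031. The values of Fdft1 and Sqle are therefore uncertain by any shared reads, while the 5 Idi1 pseudogenes held at most 14 counts each over all libraries.

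Total counts ran from 13484776 to 22143504 per library. The summed level of 7 ventricular muscle genes lay between 39545 and 66198 CPM in every library, and markers of adipocytes and of hepatocytes summed to at most 9.52 and 11.4 CPM. Summed atrial muscle markers ranged from 2.84 to 1899 CPM, and 20 male libraries, 17 of them in the low-number set, had over 10 CPM of the atrial light chain Myl7. 1 library went against its label, since in female gamma replicate 7 Xist, the RNA of the silenced X chromosome, stood at 0.129 CPM, and the library was kept under its label. Female mix replicate 10 stood apart with the lowest mean of the 8 genes, a deviation of -0.35 (log2) from the mean of all 80 libraries. It had 0.158 CPM of Idi1 and 12.8 CPM of Hmgcs1. Without either library no call on the 8 genes below changed. In bulk tissue, fewer cells of a type and less RNA per cell cannot be told apart.

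**Figure D2:**
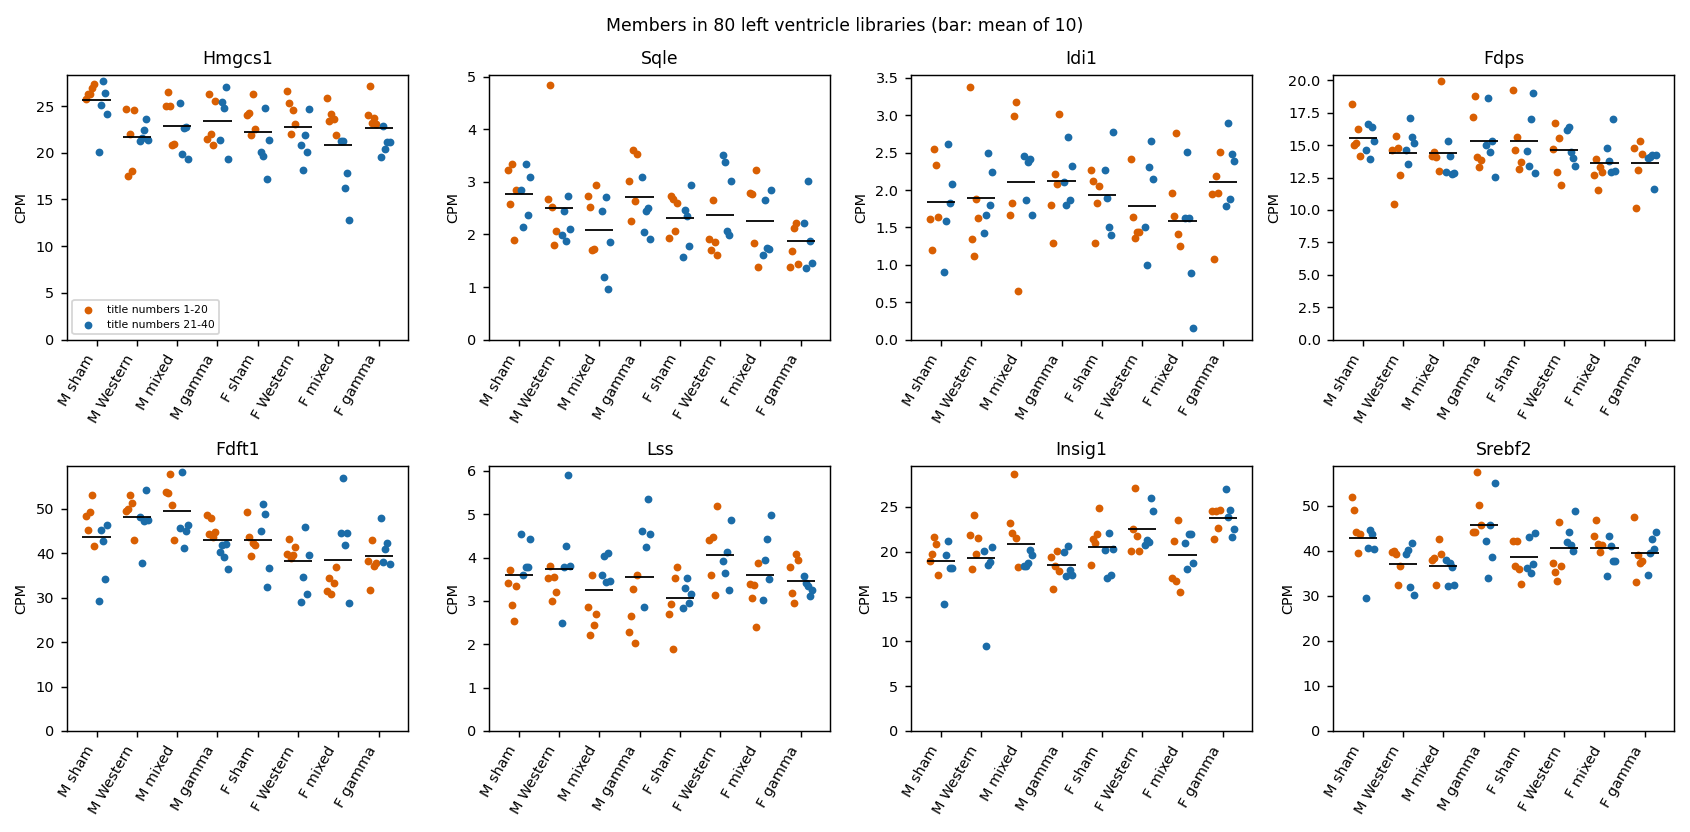
CPM of each gene in each of the 80 libraries (points), by sex (M, F) and condition; orange marks title numbers 1-20, blue title numbers 21-40, and the bar is the mean of 10 libraries. The groups overlap in every panel, the isolated low Idi1 point is female mix replicate 10 (0.158 CPM), and the low-number male sham points of Hmgcs1 lie together at the top.

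Diet came first, with Western diet and sham libraries set side by side. None of the 8 genes passed the test in either sex (edgeR's quasi-likelihood test, adjusted p under 0.05 over all genes), and the groups of 10 overlapped for all 8. Over all genes, 0.397% were called in males and 0.0189% in females, and groups did not overlap for 0.0315% in males and 0% in females. At an unadjusted p under 0.05 there were 2 of 8 in males (12.8% of all genes) and 1 of 8 in females (7.39%), and DESeq2 called none. The genes nearest to a change were Hmgcs1 and Srebf2 in males and Lss in females.

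Hmgcs1 in males had a lowest, median and highest level of 20.1, 26.3 and 27.6 CPM in sham and 17.5, 21.8 and 24.7 CPM on the Western diet. Most sham libraries lay above most Western diet libraries, with overlap through male sham replicates 6 and 10. The log2 change was -0.24 ± 0.08 (SE; 95% interval -0.40 to -0.07; n = 10 and 10; edgeR adjusted p = 0.18). In females the levels were 17.1, 22.2 and 26.3 CPM in sham and 18.1, 22.5 and 26.6 CPM on the Western diet, with a log2 change of 0.03 ± 0.08 (SE). The difference between the sexes in this change was -0.27 ± 0.12 (log2, SE) and did not pass the test (edgeR adjusted p = 0.436).

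Within the low-number set, Hmgcs1 did pass in males, as 1 of 8 genes against 7.53% of all genes. Its 5 sham libraries had 25.7, 26.2, 26.3, 26.9 and 27.3 CPM, and its 5 Western diet libraries had 24.7, 17.5, 22.04, 18.1 and 24.6 CPM. Every Western diet library was below every sham library there, as was so, in either direction, for 5.25% of all genes. The log2 change was -0.31 ± 0.10 (SE; edgeR adjusted p = 0.0468). In the high-number set it was -0.16 ± 0.10 (SE; edgeR adjusted p = 0.999), with sham at 20.1, 25.1, 27.6, 26.4 and 24.2 CPM and Western diet at 21.2, 21.6, 22.5, 23.7 and 21.4 CPM. The difference in this change between the number sets was not called (0.15 ± 0.14, log2 and SE, edgeR adjusted p = 0.691). The same low-number males also differed in the clock gene Bmal1, at 5.11 to 9.13 CPM in sham and 0.845 to 1.81 CPM on the Western diet. Ribosomal RNA held 0.293% to 1.96% of counts in these sham libraries and 0.178% to 0.419% in these Western diet libraries. The part of either in the Hmgcs1 values within this set was not tested.

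Srebf2 in males ran from 29.6 through a median of 43.8 to 51.9 CPM in sham and from 30.2 through 39.3 to 41.8 CPM on the Western diet. The lowest libraries lay close together while the sham group reached higher, and the log2 change was -0.20 ± 0.08 (SE; edgeR adjusted p = 0.234). Lss in females ran from 1.88 through 3.06 to 3.77 CPM in sham and from 3.14 through 4.02 to 5.19 CPM on the Western diet. This was the largest Western diet difference among the 8 genes, a log2 change of 0.41 ± 0.14 (SE; 95% interval 0.14 to 0.69; edgeR adjusted p = 0.47). Insig1, whose RNA is known to follow SREBP activity, had log2 changes of 0.02 ± 0.09 in males and 0.14 ± 0.09 in females (SE). Its 95% intervals were -0.15 to 0.20 in males and -0.04 to 0.31 in females.

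The mixed field was compared with sham in the same way, and again none of the 8 genes was called by edgeR in either sex (0.0693% of all genes in males and 0% in females) or by DESeq2. The groups of 10 overlapped for all 8 genes, as they did for all genes tested, with 0% not overlapping in males and 0% in females. At an unadjusted p under 0.05 there were 4 of 8 in males (8.17% of all genes) and 1 of 8 in females (6.47%). In males Srebf2 had a log2 change of -0.22 ± 0.08, Sqle of -0.41 ± 0.18, Hmgcs1 of -0.17 ± 0.08 and Fdft1 of 0.18 ± 0.09 (SE; edgeR adjusted p from 0.385 to 0.604). The squalene-forming and squalene-oxidising enzymes, Fdft1 and Sqle, had values of opposite sign in these males, neither of them called. In mixed field females both were negative (-0.16 ± 0.09 and -0.03 ± 0.18, log2 and SE). Their signs were opposite for the Western diet in each sex and alike for gamma in each sex.

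Sqle in males ran from 1.90 through 2.84 to 3.35 CPM in sham and from 0.965 through 2.15 to 2.93 CPM after the mixed field. Srebf2 ran from 32.1 through 37.6 to 42.7 CPM after the mixed field, against the sham range given above. In females the unadjusted gene was Fdps, from 12.8 through 14.6 to 19.3 CPM in sham and from 11.5 through 13.2 to 16.98 CPM after the mixed field (log2 change -0.17 ± 0.08, SE; edgeR adjusted p = 0.763). For Fdft1 in females, the low-number sham libraries had 49.4, 43.6, 39.4, 42.3 and 42.0 CPM and the mixed field libraries 31.6, 34.5, 30.8, 33.4 and 36.9 CPM, without overlap, as for 4.06% of all genes. That low-number log2 change was -0.37 ± 0.12 (SE; edgeR adjusted p = 0.173), the high-number change was 0.02 ± 0.12, and the difference between the number sets, 0.39 ± 0.17, was not called (edgeR adjusted p = 0.203). The same low-number females also differed in Bmal1, at 2.68 to 5.62 CPM in sham and 7.63 to 15.1 CPM after the mixed field. Its part in the Fdft1 values within this set was not tested.

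Gamma radiation gave the same count, none of 8 in either sex by edgeR (0.176% of all genes in males and 0% in females) or by DESeq2, with overlap for all 8 genes (not overlapping: 0% of all genes in males, 0.0189% in females). At an unadjusted p under 0.05 there were 0 of 8 in males (5.43% of all genes) and 2 of 8 in females (10.3%). The female genes were Insig1 and Fdps. Insig1 ran from 17.1 through 20.6 to 24.8 CPM in female sham and from 21.4 through 24.2 to 26.96 CPM after gamma, a log2 change of 0.21 ± 0.09 (SE; 95% interval 0.04 to 0.39; edgeR adjusted p = 0.412). All 10 gamma libraries thus lay above the female sham median. Fdps was not called either, with -0.17 ± 0.08 (log2, SE; edgeR adjusted p = 0.462).

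**Figure D3:**
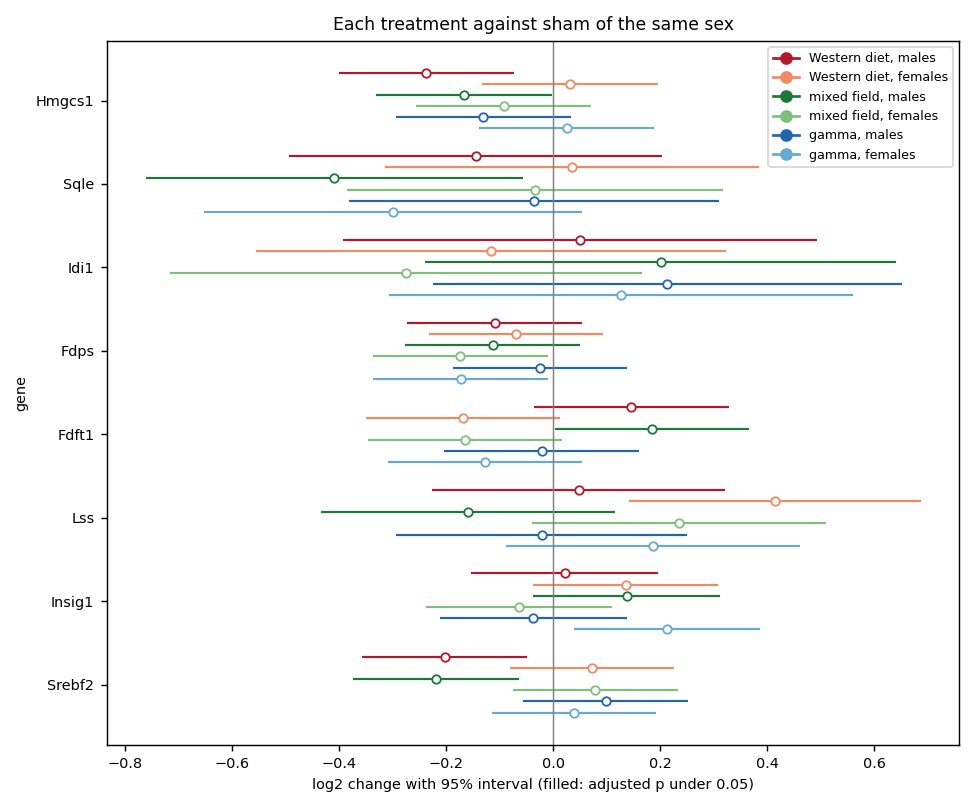
Log2 change of each gene in the Western diet, mixed field and gamma groups against sham of the same sex, with its 95% interval (10 libraries against 10; edgeR). No point is filled, as none passed an adjusted p under 0.05; the intervals are widest for the low genes Idi1 and Sqle, and Lss in females on the Western diet, at 0.41, is the highest point.

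Averaging the sexes added no call for the Western diet, the mixed field or gamma (0 of 8 each by edgeR and DESeq2; 0% of all genes for each treatment). At an unadjusted p under 0.05 there were 1 of 8 for the Western diet (Lss; 11.4% of all genes), 2 of 8 for the mixed field (Hmgcs1 and Fdps; 5.7%) and 0 of 8 for gamma (10.9%). The Western diet, mixed field and gamma comparisons share their sham libraries, so their values are not independent. The log2 changes of Fdps were -0.11 and -0.07 for the Western diet, -0.11 and -0.17 for the mixed field and -0.02 and -0.17 for gamma, in males and females. The limits were widest for Idi1, whose 95% interval for the Western diet in males ran from -0.39 to 0.49 (log2), against -0.36 to -0.05 for Srebf2.

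Treatment effects were also set against each other between the sexes, and none of 8 genes was called (edgeR and DESeq2; 0.447%, 0.0315% and 0% of all genes for the Western diet, mixed field and gamma). At an unadjusted p under 0.05 there were 3 of 8 for the Western diet (9.24% of all genes), 3 of 8 for the mixed field (9%) and 1 of 8 for gamma (5.38%). Fdft1 and Srebf2 were in both of the first sets. The male change minus the female change of Fdft1 was 0.31 ± 0.13 for the Western diet and 0.35 ± 0.13 for the mixed field (log2, SE; edgeR adjusted p = 0.388 and 0.399). For Srebf2 these differences were -0.28 ± 0.11 and -0.30 ± 0.11 (log2, SE; edgeR adjusted p = 0.359 and 0.399). The clock gene Bmal1, an activator of the circadian clock, was called in the same 2 contrasts, at -2.90 and -2.51 (log2; edgeR adjusted p = 7.82e-05 and 0.0124). With the first 2 principal components of 14 clock genes as terms, the difference of Fdft1 was -0.01 for the Western diet and 0.10 for the mixed field (log2). That of Srebf2 was -0.22 and -0.27 with the same terms. For the Western diet, that of Lss was -0.37 without and -0.62 with these terms, and that of Hmgcs1 was -0.08 with them (log2). None of these values was called.

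Nor was a difference in a treatment effect between the number sets called for any of the 8 genes (edgeR and DESeq2). Over all genes, 0.0315%, 0.0252% and 0% were called for the Western diet, mixed field and gamma in males, and 0%, 1.39% and 0% in females. At an unadjusted p under 0.05 there was 1 of 8, Fdft1 for the mixed field in females as given above (17.1% of all genes). The count was 0 of 8 in the other 5 comparisons, against 13.6%, 7.87% and 3.45% of all genes in males and 3.05% and 3.47% for the Western diet and gamma in females.

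Males and females differed in 2 of the 8 genes over the 4 conditions, against 23.3% of all genes (edgeR adjusted p under 0.05, either direction). Fdft1 was higher in males, with a lowest, median and highest level of 29.4, 46.0 and 58.2 CPM in 40 male libraries and 28.8, 39.7 and 56.9 CPM in 40 female libraries. The sexes overlapped, but 35 of 40 male libraries lay above the female median. The log2 difference was 0.21 ± 0.05 (SE; 95% interval 0.12 to 0.30; edgeR adjusted p = 0.000442). Its overlapping neighbour Ctsb, with -0.01 ± 0.03 (log2, SE; edgeR adjusted p = 0.845), was not called.

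Insig1 was lower in males, at 9.51, 19.5 and 28.6 CPM (lowest, median and highest) against 15.5, 21.5 and 27.1 CPM in females. Only 7 of 40 male libraries lay above the female median, and the log2 difference was -0.15 ± 0.04 (SE; edgeR adjusted p = 0.00778). Neither gene's call was lost on leaving out any 1 library. Fdft1 and Insig1 thus differed in opposite directions. Sqle, at 0.19 ± 0.09 (log2, SE; edgeR adjusted p = 0.117), and the other 5 genes were not called.

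Each number set had 2 of 8 genes called between the sexes, against 33.4% of all genes in the low-number set and 19% in the high-number set. In the low-number set Fdft1 (0.33 ± 0.06) and Sqle (0.36 ± 0.12) were called higher in males (log2, SE; edgeR adjusted p = 6.77e-06 and 0.017), and Insig1 was not (-0.08 ± 0.06; adjusted p = 0.325). In the high-number set Hmgcs1 (0.20 ± 0.05) was called higher and Insig1 (-0.23 ± 0.06) lower in males (edgeR adjusted p = 0.00376 and 0.00364), and Fdft1 was not (0.09 ± 0.06; adjusted p = 0.325). The test of the difference between the number sets, given below as males minus females, was passed by Hmgcs1 and Fdft1 and not by Sqle or Insig1 (edgeR adjusted p = 0.132 and 0.18). Summed atrial markers differed with sex in the low-number set, with a median of 168 CPM in males against 6.59 CPM in females. In the high-number set the medians lay close, at 9.90 CPM in males and 8.36 CPM in females. Leaving out the 20 libraries over 10 CPM of Myl7 removed 17 low-number and 3 high-number male libraries and no female library. Fdft1 (0.18, edgeR adjusted p = 0.0428) and Insig1 (-0.17, adjusted p = 0.0496) were called among the rest (log2). Those males were mostly of the high-number set and the females of both, so sex and number set are mixed in these values.

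Within a sex, the number sets themselves differed for 2 of 8 genes in males (29.8% of all genes), 1 of 8 in females (24%) and, as a difference between the sexes, 3 of 8 (26.9%; edgeR adjusted p under 0.05). In males Lss was higher in the high-number set. Its low-number levels ran from 2.02 through 3.10 to 3.80 CPM and its high-number levels from 2.50 through 3.92 to 5.91 CPM, with 18 of 20 high-number libraries above the low-number median. The log2 difference was 0.42 ± 0.09 (SE; 95% interval 0.25 to 0.59; edgeR adjusted p = 0.000111). In females the 2 number sets had close medians (3.45 and 3.47 CPM), with a log2 difference of 0.06 ± 0.08, and the male difference exceeded the female one by 0.36 ± 0.12 (SE; edgeR adjusted p = 0.0192). The excess was not called without a filter on low counts (0.34, adjusted p = 0.139), with 2 clock components as terms (0.43, adjusted p = 0.0542) or with the ribosomal RNA share as a term (0.33, adjusted p = 0.291).

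Hmgcs1 was lower in the high-number set in females. Female levels ran from 21.9 through 23.8 to 27.2 CPM in the low-number set and from 12.8 through 20.6 to 24.8 CPM in the high-number set, with 2 of 20 high-number libraries above the low-number median. The log2 difference was -0.26 ± 0.05 (SE; edgeR adjusted p = 0.00011). In males it was -0.03 ± 0.05, and males minus females gave 0.22 ± 0.07 (SE; edgeR adjusted p = 0.016). With the clock components as terms, the female difference was -0.32 and that between the sexes 0.41, both still called (edgeR adjusted p = 0.000122 and 0.00191), while without a filter on low counts that between the sexes was 0.20 and not called (adjusted p = 0.122).

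Fdft1 was lower in the high-number set in males, from 41.7 through 49.0 to 57.8 CPM in the low-number set and from 29.4 through 43.8 to 58.2 CPM in the high-number set, with 2 of 20 high-number libraries above the low-number median. The log2 difference was -0.17 ± 0.06 (SE; edgeR adjusted p = 0.0236), and without male sham replicate 6 it was no longer called (-0.14; adjusted p = 0.0577). Females had 0.08 ± 0.06, and males minus females gave -0.25 ± 0.08 (SE; edgeR adjusted p = 0.0188). Ctsb, on the other strand, moved with it: -0.17 in males (edgeR adjusted p = 0.000392) and -0.20 as males minus females (adjusted p = 0.00298), and its part in the Fdft1 values was not tested. With the clock components as terms, the male difference of Fdft1 was -0.01 (edgeR adjusted p = 0.976), and males minus females turned to 0.07 (adjusted p = 0.684). With the ribosomal RNA share as a term the latter was -0.19 (adjusted p = 0.399).

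Other measures differed between the number sets as well. Bmal1 was lower in the high-number set in females (-1.12) and higher in males (0.50), and Dbp, a clock output, moved the other way (0.83 and -0.33; log2, edgeR adjusted p of at most 0.0302). The share of all counts held by the ribosomal RNA gene Rn18s-rs5 had a median of 0.351% in low-number and 1.65% in high-number males, and of 3.57% and 0.484% in females. Summed atrial markers fell from a median of 168 to 9.90 CPM in males. With the ribosomal share as a term, Lss in males (0.40, edgeR adjusted p = 0.0139) and Hmgcs1 in females (-0.35, adjusted p = 8.2e-05) were still called, but Fdft1 in males was not (-0.14, adjusted p = 0.266). The male number sets could not be compared without the 20 libraries over 10 CPM of Myl7. All 5 low-number libraries of male sham, of male Western diet and of male gamma were among them, so atrial tissue and number set cannot be told apart there.

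**Figure D4:**
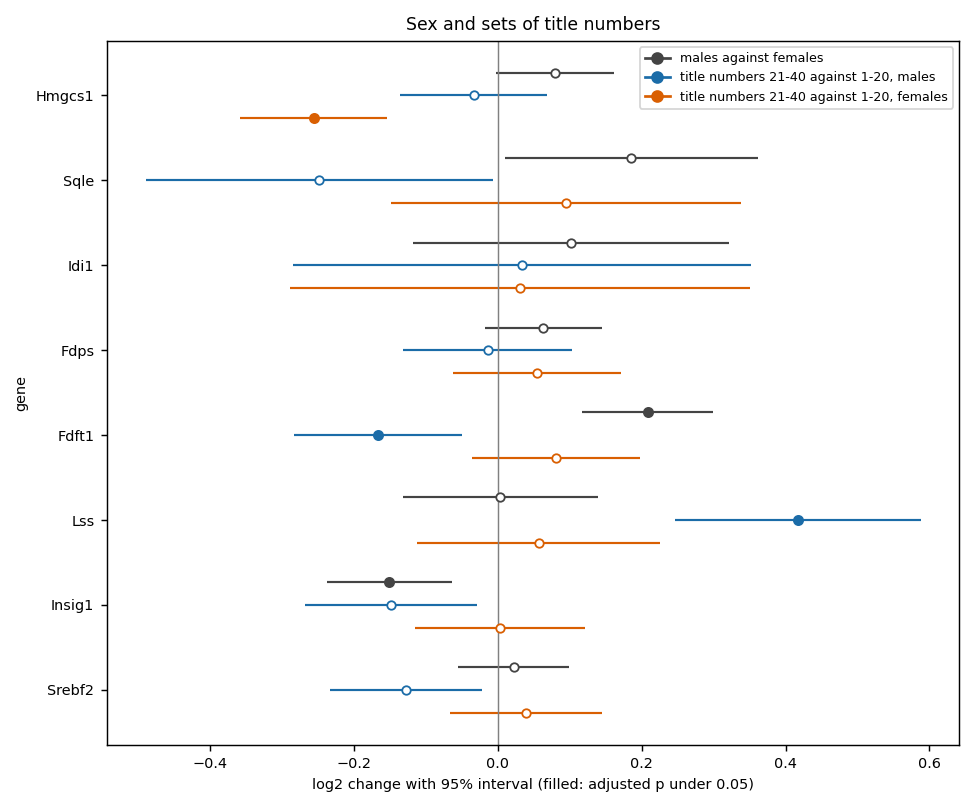
Log2 difference of each gene between males and females (grey; 40 libraries against 40) and between title numbers 21-40 and 1-20 in males (blue) and females (orange; 20 against 20), with 95% intervals; filled points passed an adjusted p under 0.05 in edgeR. Fdft1 (0.21) and Insig1 (-0.15) are filled for sex, Lss (0.42) and Fdft1 (-0.17) for the male number sets and Hmgcs1 (-0.26) for the female number sets.

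The 8 genes were compared across the 80 libraries as log2(CPM + 0.5), after the mean of each of the 16 groups by number set was taken off. Of 28 pairs, 16 had a positive and 12 a negative Pearson r, with a median of 0.0248 and a range from -0.228 (Fdps with Lss) to 0.447 (Hmgcs1 with Idi1). None of the 28 pairs passed a Benjamini-Hochberg adjusted permutation p of 0.05, by Pearson's r or by Spearman's rho. The points share library size and, for Idi1, Sqle and Lss, large counting error.

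The highest pair, Hmgcs1 with Idi1, had r = 0.447 and rho = 0.339 (permutation p = 0.00197 and 0.0075, adjusted p = 0.0552 and 0.21, n = 80). It fell to r = 0.315 without the 2 libraries farthest from the median of Hmgcs1. Idi1 with Fdft1 had r = 0.399 and rho = 0.186 (permutation p = 0.00672 and 0.146, adjusted p = 0.0808 and 0.455), and r = 0.243 without the 2 farthest. Hmgcs1 with Fdft1 had r = 0.336 and rho = 0.173 (permutation p = 0.0253 and 0.171, adjusted p = 0.177 and 0.479), and r = 0.174 without the 2 farthest. Fdft1 with Insig1 had r = 0.322 and rho = 0.276 (permutation p = 0.00866 and 0.0231, adjusted p = 0.0808 and 0.268), and r = 0.267 without the 2 farthest. Srebf2, the gene of the factor itself, had r from -0.109 with Fdps to 0.199 with Sqle over its pairs with the other 7 genes.

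**Figure D5:**
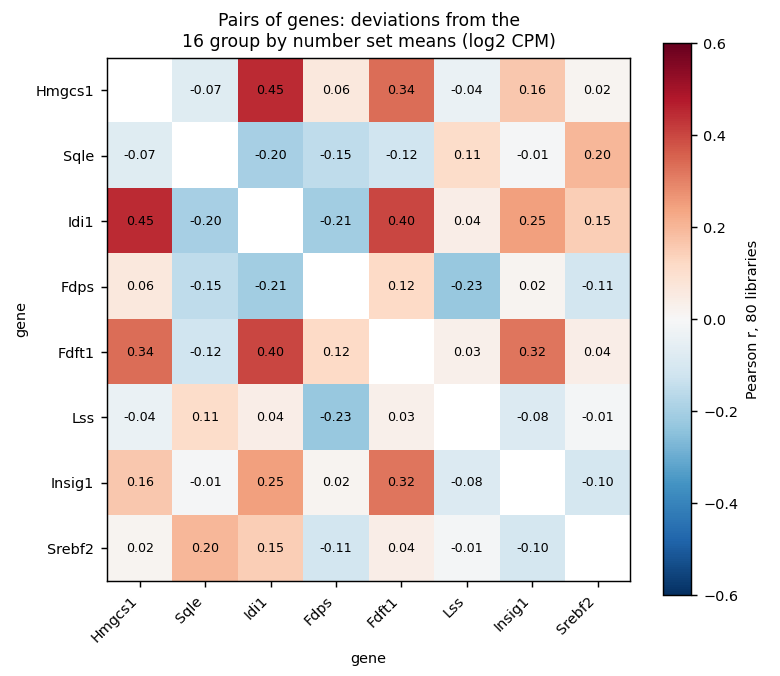
Pearson r for each pair of the 8 genes over 80 libraries, from deviations of log2(CPM + 0.5) around the 16 group by number set means; red is positive and blue negative. The highest value joins Hmgcs1 and Idi1 (0.447) and the lowest Fdps and Lss (-0.228). All pairs among Hmgcs1, Idi1, Fdft1 and Insig1 are positive, from 0.160 to 0.447, though no pair passed the adjusted permutation test.

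Of 16 relations of the 8 genes with the clock genes Bmal1 and Dbp, chosen after the values were seen, only that of Fdft1 with Bmal1 passed (r = -0.417 and rho = -0.439, permutation p = 0.00212 and 0.00045, adjusted p = 0.0339 and 0.0072, n = 80). It was r = -0.463 without the 2 farthest libraries, -0.168 within the low-number set and -0.524 within the high-number set. The adjusted p-values cover these 16 relations only, and not the choice of the clock genes. The r of each of the 8 genes with the mean of the others ran from -0.212 (Fdps) to 0.404 (Fdft1). The mean of the 8 thus did not follow every gene alike. Among 12421 genes ranked by r with this mean of the 8, the nearest were Isoc1 (0.67), Pdp1 (0.65), Klhl23 (0.64), Kcnj5 (0.64) and Entpd5 (0.64), over 80 libraries. Of the 4 lists of other pathway genes described next, the sterol desaturase gene Sc5d (r = 0.595, rank 33) and the lysosomal cholesterol exporter gene Npc1 (r = 0.538, rank 172) came nearest. The same lists reached down to Abcg1 (r = -0.308, rank 11032) and Nr1h2 (r = -0.365, rank 11661), so the pathway genes did not follow this mean as a set.

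The other genes of the pathway were read in 4 lists, of 14 other cholesterol enzymes, 12 genes of sterol sensing and SREBP control, 11 of sterol efflux, storage and transport and 6 of the isoprenoid branch. Every gene passed the filter and none was called by edgeR in the 6 comparisons with sham within a sex. Among the other enzymes, 5 of 14 had an unadjusted p under 0.05 in gamma females (10.3% of all genes), all lower: Acat2 (-0.30), Pmvk (-0.22), Mvd (-0.31), Ebp (-0.19) and Dhcr7 (-0.24), as log2 changes with edgeR adjusted p from 0.391 to 0.477. Abca1, which carries cholesterol out of cells and is raised by liver X receptors, had log2 changes of 0.48 ± 0.17 in Western diet males and 0.61 ± 0.17 in mixed field males (SE; edgeR adjusted p = 0.193 and 0.189). Abcg1, its partner in efflux, had -0.64 ± 0.20 in Western diet females (log2, SE; edgeR adjusted p = 0.457). The median log2 change of the 14 other enzymes in gamma females was -0.12, against -0.00 for all genes tested, and that of the 8 genes was 0.03.

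Between the sexes, 23.3% of all genes were called, and the counts in the 4 lists, of 6 to 14 genes each, are to be read against that share. Of the 14 other enzymes 3 were called: Acat2, which makes acetoacetyl-CoA, was higher in males (0.18 ± 0.06), and the 2 genes for sterol C14-reductases, Tm7sf2 (-0.38 ± 0.09) and Lbr (-0.34 ± 0.07), were lower (log2, SE; edgeR adjusted p of at most 0.0205). In the sensing list Mbtps1, the gene of the first protease that cuts SREBP (-0.12 ± 0.03), and Erlin1 (-0.14 ± 0.04) were lower in males, 2 of 12. In the transport list 3 of 11 were lower in males, the liver X receptor genes Nr1h2 (-0.14 ± 0.04) and Nr1h3 (-0.17 ± 0.05) and Npc1 (-0.25 ± 0.08). In the isoprenoid branch Ggps1 (0.14 ± 0.04) and Dhdds (0.12 ± 0.04) were higher and Coq2 (-0.12 ± 0.03) lower, 3 of 6 (log2, SE).

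Between the number sets, 4 of 14 other enzymes were called in each sex, near the share of all genes called (29.8% in males and 24% in females). In males Tm7sf2 (0.58 ± 0.11) and Lbr (0.28 ± 0.09) were higher and Cyp51 (-0.21 ± 0.07) and Sc5d (-0.16 ± 0.06) lower in the high-number set, all genes of steps after lanosterol is made. In females Mvd (0.30 ± 0.08), Acat2 (0.21 ± 0.08), Nsdhl (0.22 ± 0.08) and Ebp (0.16 ± 0.06) were higher (log2, SE). Scap, the gene of the SREBP escort, was also higher in high-number females (0.21 ± 0.05), the single called gene of the 12 in its list, and no gene of that list was called in males, against the same shares of all genes. Of all 14 enzymes, Mvd alone differed between the sexes in this contrast (-0.37 ± 0.11, log2 and SE; edgeR adjusted p = 0.00726), against 26.9% of all genes called.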

How the data were processed

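RNA-seq of left ventricle was read from a deposited table of whole-number gene counts for 80 libraries. Per the submitters' processing notes, the authors used FastQC 0.11.9 and STAR 2.7.8a with the GRCm39 build; what counted the reads, on which strand and with which gene models is not given in the sources used here. Gene positions came from GENCODE, which held 56323 of the 56941 identifiers. Libraries held 13484776 to 22143504 counts (mean 16518589).

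Groups came from the labels. edgeR 4.0.16 (R 4.3.3) kept 15879 genes by filterByExpr, scaled libraries by TMM and fitted quasi-likelihood models, with 8 group coefficients for treatment and sex and 16 group by number set coefficients for the number sets. P-values were adjusted over all genes tested by Benjamini-Hochberg at 0.05, and intervals are 95%. Correlations used 100000 permutations within the 16 group by number set combinations, two-sided. DESeq2 1.42.0 and the settings named in the closing section were alternatives. The steps were tested on simulated data.

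The 8 genes were all named, with the libraries and genes that a result turned on, and the pathway lists give the genes called and the examples described. Members and lists were chosen with earlier results of these data known. Some genes are not reported here. Males and females share title numbers, but the numbers did not pair the libraries: over 40 same-numbered pairs the correlation of deviations had a median of -0.00496, and 6 were over 0.1.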

Additional observations from a re-analysis of the deposited data

Results flagged for a closer look

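Each of the 8 genes in each of the 8 groups gave 1 set of 10 libraries, 64 sets in all. These sets share libraries and are not independent. In 7 of them, 1 library lay far from the other 9 by Dixon's test, where chance gives about 1 in 20, or 3.2. The high ones were male mix replicate 5 for Fdps (19.95 CPM; next 15.3), male mix replicate 3 for Insig1 (28.6 CPM; next 23.2), male Western replicate 9 for Lss (5.91 CPM; next 4.26), male Western replicate 2 for Sqle (4.85 CPM; next 2.72) and female gamma replicate 8 for Sqle (3.01 CPM; next 2.22). The low ones were male sham replicate 6 for Hmgcs1 (20.1 CPM; next 24.2) and male Western replicate 7 for Insig1 (9.51 CPM; next 18.04).

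For 3 genes the difference between the number sets of the title numbers itself differed between the sexes, by the test of that difference in edgeR. Males minus females gave a log2 value of 0.22 for Hmgcs1, -0.25 for Fdft1 and 0.36 for Lss. Clock genes, the ribosomal RNA share and atrial markers differed between the same libraries, and their part in these results was not tested beyond the terms given in the report.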

How the results depend on the processing

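Calls on the 8 genes against sham were 0 under every alternative run, apart from 1 for the Western diet in males within title numbers 1-20. The count for male number sets was 1 with clock components as terms and 1 with the ribosomal RNA share as a term, against 2, and ran from 1 to 4 on leaving out 1 library: 1 without male sham replicate 6, and 4, with Insig1 and Srebf2 added, without male sham replicate 4, 5, 8 or 10, male Western replicate 4 or 9, or male mix replicate 1 or 2. The count for males minus females in the number sets was 1 without a filter on low counts, 1 with clock components and 1 with the ribosomal share, against 3, and Fdft1 in that contrast reversed to 0.066 (log2) with clock components. With the title number as a replicate block, counts stayed at 0 for the 3 treatment effects between the sexes and at 2 for sex. Over all genes, the Western diet count in males, 63, was 146 by DESeq2, 32 without a filter, 809 with clock components, 31 with the ribosomal share, 297 with number sets in the model, 1195 within title numbers 1-20 and 2 within 21-40. The male number sets count of 4733 was 710 with clock components and 1057 with the ribosomal share. The cause of these changes was not tested. The low counts of Idi1, Sqle and Lss limit what could be seen in them.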
